A study of Mus musculus with 2 samples.

Results

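The genes described here are 38 components of the folding and stress machinery of the endoplasmic reticulum, chosen by name from the 28000 features that each library lists, and all 38 were present in both. They were read in single-cell RNA-seq of mouse prostate tumors, with 15 genes for protein folding, 9 for stress sensors and transcription factors, 5 for degradation of misfolded proteins and 9 for entry of new proteins into the organelle. The names came from a list and not from measured values, although results of these data were known when the list was made. Each gene was read in the luminal, seminal vesicle, basal and other cells of 2 libraries, 1 for each genotype.

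The DoubleTg library, labelled hHGFtg-hMETtg-PBCre, was made from prostatic adenocarcinoma, in tissue that the study describes as also holding high-grade prostatic intraepithelial neoplasia. The TripleTg library, labelled hHGFtg-hMETtg-Ctnnb1-PBCre, was made from prostatic carcinoma and differs by the Ctnnb1 allele L(Ex3)/+, which loses exon 3 on recombination and yields stabilized β-catenin. Both genotypes carry the human HGF transgene, expressed in all tissues, and the human MET transgene at the H11 locus behind a LoxP-stop-LoxP cassette that the probasin-driven PB-Cre4 removes in prostatic epithelium, on a mixed C57BL/6 and C3H SCID background. The labels give no age for either library. With 1 library per genotype no difference between genotypes could be tested, so the intervals given here (95%) cover counting error only, and animal, tumor stage, dissociation and library cannot be told apart from genotype.

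Secreted and membrane proteins enter the endoplasmic reticulum through the Sec61 channel, lose their signal peptide and are folded by chaperones and disulfide isomerases in the lumen. When unfolded proteins accumulate, 3 kinds of sensor answer: the IRE1 kinases (Ern1 and Ern2) splice the Xbp1 transcript, the kinase PERK slows translation and favors synthesis of ATF4, and ATF6 travels to the Golgi and is cut to release a transcription factor. These factors raise chaperones and the machinery that returns terminally misfolded proteins to the cytosol for degradation, and under prolonged stress ATF4 also raises Ddit3, which encodes CHOP. Prostatic luminal and seminal vesicle epithelia are professional secretory tissues, and the machinery is known to be abundant in such cells. Gene counts from 3′ ends do not separate spliced from unspliced Xbp1, and they say nothing of the activity of ATF6 or PERK.

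A sequence shared by part of the list is shown here because ATF6 and its partner NF-Y are known to act through it: the ER stress response element, CCAAT and CCACG held apart by 9 bases of any kind. RefSeq promoters of build GRCm38.p6, each running from 250 bases before to 50 bases after a start site, were found for 31 of the 38 genes, and both strands were searched. The element was present in 8 of the 31 (25.8%) and in 39 of 32851 promoters in the table (0.119%). The shorter element, ATTGG and CCACG held apart by 1 base, was present in 2 of 31, Herpud1 and Dnajb11, and in 12 of all promoters (0.0365%), and in Dnajb11 it lay after the start site. The UPR element TGACGTGG, searched after the others had been read, was in 0 of 31 and in 0.676% of all promoters. Matches are descriptions of letters and not evidence of binding. The 9 long elements are printed 5′ to 3′ on their own strand with the conserved blocks in capitals, and Hsp90b1 holds a pair of them.
Hspa5: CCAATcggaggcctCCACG
Hsp90b1 (distal): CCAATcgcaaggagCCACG
Hsp90b1 (proximal): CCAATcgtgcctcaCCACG
Calr: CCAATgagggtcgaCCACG
Canx: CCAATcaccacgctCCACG
Pdia6: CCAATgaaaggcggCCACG
Dnajc3: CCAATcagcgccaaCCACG
Creld2: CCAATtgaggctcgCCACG
Syvn1: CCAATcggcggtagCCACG

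The elements ended between 26 bases (Syvn1) and 194 bases (the distal one of Hsp90b1) before the RefSeq start site, and 3 of the 9 lay on the strand opposite to the gene (Calr, Creld2 and the proximal one of Hsp90b1). The 250 bases upstream of 3 genes are given in full on the strand of the gene, since Hspa5 encodes BiP, the chaperone that holds the sensors silent, Pdia6 had the lowest luminal TripleTg to DoubleTg ratio among the element holders and Herpud1 holds the short form. They span chr2:34771840-34772089 for Hspa5, chr12:17266339-17266588 for Pdia6 and chr8:94386179-94386428 for Herpud1, all on the plus strand, with the element blocks in capitals.
Hspa5: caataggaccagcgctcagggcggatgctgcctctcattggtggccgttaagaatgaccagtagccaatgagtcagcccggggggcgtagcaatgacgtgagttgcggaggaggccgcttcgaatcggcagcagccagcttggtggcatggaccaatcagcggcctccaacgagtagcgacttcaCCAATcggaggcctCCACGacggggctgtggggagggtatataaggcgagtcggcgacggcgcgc
Pdia6: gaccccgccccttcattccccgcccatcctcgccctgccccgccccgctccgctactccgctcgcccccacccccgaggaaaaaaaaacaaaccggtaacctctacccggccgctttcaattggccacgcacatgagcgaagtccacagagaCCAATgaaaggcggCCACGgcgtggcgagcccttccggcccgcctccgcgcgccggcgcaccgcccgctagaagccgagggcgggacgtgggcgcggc
Herpud1: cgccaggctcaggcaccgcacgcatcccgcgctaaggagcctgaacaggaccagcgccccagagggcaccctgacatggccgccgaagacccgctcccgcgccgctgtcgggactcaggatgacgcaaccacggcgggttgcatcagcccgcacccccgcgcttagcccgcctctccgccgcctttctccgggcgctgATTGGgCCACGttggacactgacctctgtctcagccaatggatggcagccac

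After the limits on genes and mitochondrial reads, 10598 DoubleTg cells (of 12072) and 9492 TripleTg cells remained, with medians of 16761 and 20097 unique molecular identifiers (UMIs, counted transcript molecules) per cell. Luminal-like cells were 4764 (45.0%) and 4196 (44.2%) of them, basal-like 1869 and 899, and seminal vesicle-like 126 and 586. The genes lie on 17 chromosomes, with at most 5 on any 1, and 30 cell barcodes occur in both libraries. Different clusters made up the luminal-like class in each library. Of the 16 luminal markers, the DoubleTg clusters had UMIs of 12 or 13, and the TripleTg clusters of 8 or 9, in at least 0.5 of their cells. In DoubleTg they were led by Gm37223, Pcp4, Srpx, Msln, Alb, Spink5, Ifit3b and Scgb2b27 (clusters 10, 13, 14, 17, 12, 11, 1 and 4) and by cell cycle genes (cluster 25), and in TripleTg by Defb50, Ifit3, Rnase1, Ube2c, Apoc4, Fam213a and Defa5 (clusters 8, 13, 5, 0, 9, 3 and 1). Secretory products, a list of 26 genes such as Sbp and Svs2, took 12.2% of luminal UMIs in DoubleTg and 1.11% in TripleTg, and hMETtg UMIs were seen in 86.0% and 33.2% of luminal cells. A list of 13 immediate early and heat shock genes, which also move with dissociation, took 0.471% and 0.576% of luminal UMIs and 0.479% and 0.378% of basal UMIs. The part of these differences in the results on the 38 genes was not tested.

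The 38 genes together took 1.51% of UMIs in DoubleTg luminal-like cells, more than in any other named class of that library. Next came the seminal vesicle-like cells at 0.912% and the fibroblast-like cells at 0.898%, whose intervals overlapped. The name fibroblast-like is uncertain in DoubleTg, since cluster 7, with 401 of its 682 cells, had 0 fibroblast markers and 1 marker of another class among its 10 leading genes (Wif1 and Spp1 the highest). Then came the basal-like cells at 0.853%, which overlapped with smooth muscle-like cells at 0.849%. Dendritic-like and endothelial-like cells followed at 0.834% and 0.830%, T or NK-like cells at 0.780%, and macrophage-like and glial-like cells were lowest at 0.657% and 0.645%. Secretory products took 6.74% of UMIs in the 65 DoubleTg smooth muscle-like cells (0.587% in TripleTg) and 2.44% in the T or NK-like cells, which are not known to make them. The source of these UMIs, and its part in the levels of the non-epithelial classes, was not tested.

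In TripleTg the luminal-like cells did not lead. With all UMIs as the total, smooth muscle-like and fibroblast-like cells, with overlapping intervals, took 0.776% and 0.772%, luminal-like cells 0.763% and seminal vesicle-like cells 0.738%. The interval of the smooth muscle-like cells also overlapped that of the luminal-like cells, while that of the fibroblast-like cells did not. Neutrophil-like (0.673%), dendritic-like (0.663%), endothelial-like (0.650%) and macrophage-like (0.648%) cells lay close together, each overlapping with the next. Basal-like cells at 0.550% and glial-like cells at 0.527% were lowest. Outside the secretory products the seminal vesicle-like cells led TripleTg at 1.39%, before fibroblast-like (0.782%), smooth muscle-like (0.781%) and luminal-like cells (0.771%), while in DoubleTg luminal-like cells still led at 1.72% and seminal vesicle-like cells followed at 1.52%. Of the other classes named in both libraries, the share was lower in TripleTg than in DoubleTg for all but the macrophage-like cells, whose intervals overlapped, and fibroblast-like cells were not compared between libraries.

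**Figure D1:**
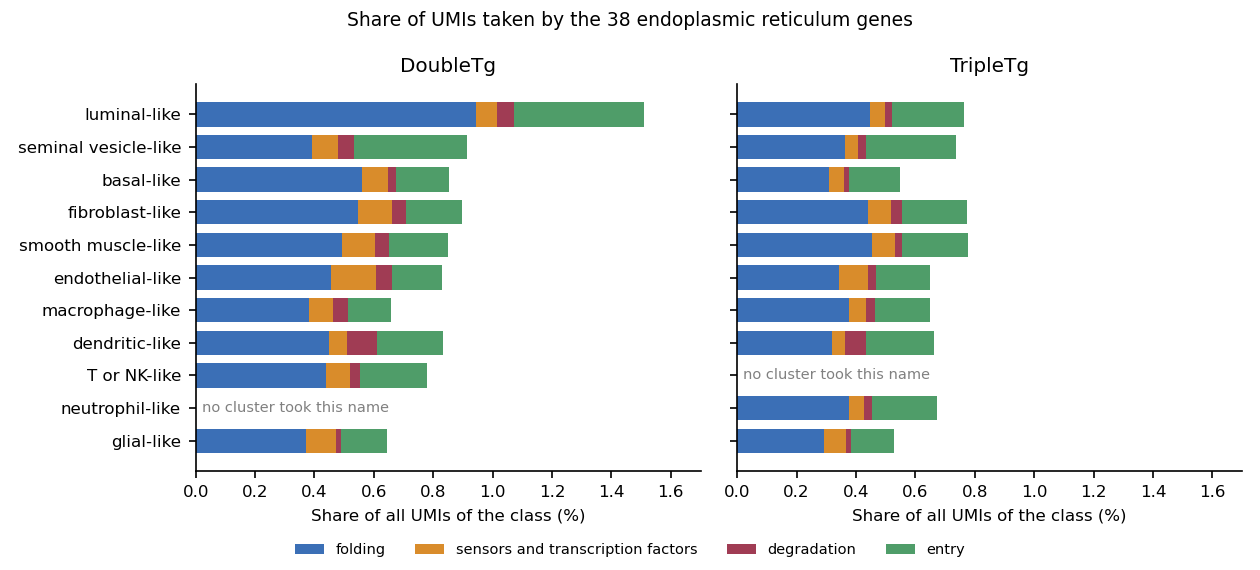
Stacked bars give the share of all UMIs of each named class (%) taken by the 4 groups of endoplasmic reticulum genes, in DoubleTg (left) and TripleTg (right). DoubleTg luminal-like cells reach 1.51%, while the TripleTg classes all lie between 0.527% and 0.776%.

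In both libraries the folding genes carried most of the difference between luminal-like and basal-like cells. They took 0.943% of UMIs in DoubleTg luminal-like cells against 0.560% in basal-like and 0.392% in seminal vesicle-like cells, and 0.447%, 0.309% and 0.364% in the same TripleTg classes. Outside the secretory products the order of the seminal vesicle-like cells turned, with folding shares of 1.07% in luminal-like, 0.563% in basal-like and 0.656% in seminal vesicle-like cells of DoubleTg, and of 0.452%, 0.311% and 0.686% in TripleTg. Entry genes then took 0.572% in TripleTg seminal vesicle-like and 0.245% in luminal-like cells, a wider gap than that of the folding genes. The luminal-like class held the highest level of 12 of the 15 folding genes in DoubleTg, without overlap of the counting interval with the next class for 11 of them, and of 2 of 15 in TripleTg (Hspa5 and Hyou1, without overlap for Hspa5 only). With totals outside the secretory products it was highest for the same number of folding genes, 12, in DoubleTg and for 0 in TripleTg, where Hspa5 and Hyou1 were then highest in seminal vesicle-like cells. Of the 37 genes at 5 CPM or more in some class, which leaves out Ern2, it was highest for 20 in DoubleTg, against 10.9% of 12585 genes, and for 4 in TripleTg, against 7.98% of 12875 genes. Without overlap of intervals these counts were 16 (5.72% of all genes) and 1, Hspa5 (2.47%), so in TripleTg the members' share was near the background. With totals outside the secretory products, luminal-like cells were highest for 17 of 37 in DoubleTg (9.10% of all genes), 14 without overlap (4.63%), and for 0 of 37 in TripleTg (6.11% of all genes, and 2.07% without overlap).

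In DoubleTg, 16 of the 36 genes with at least 5 UMIs per 1000000 UMIs of the class (CPM) in either group were at least 2-fold higher in luminal-like than in basal-like cells and 1 was at least 2-fold lower. Over all 9200 genes 20.8% were higher and 19.3% lower by this rule, so the members' share on the higher side was above the background. The median log2 ratio of the members was 0.85, against -0.11 over all genes. The higher ones were 8 folding genes (Hsp90b1, Calr, Pdia4, Pdia6, P4hb, Dnajc3, Sdf2l1 and Creld2), 5 entry genes (Sec61a1, Sec61b, Sec61g, Ssr4 and Spcs2), Edem1, Edem2 and Creb3l2, and the lower one was Trib3.

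Sdf2l1, a partner of the HSP40 chaperones of the lumen, was at 210 CPM in DoubleTg luminal-like and 31.8 CPM in basal-like cells, a log2 ratio of 2.72 (2.62 to 2.83). P4hb, the prototype disulfide isomerase, was at 968 and 170 CPM (2.51, 2.47 to 2.55). Edem2, a mannosidase-like protein that marks misfolded glycoproteins for degradation, was at 83.0 and 8.06 CPM (3.37, 3.17 to 3.57), the highest ratio of the 36. Hspa5, in contrast, was at 2858 CPM in luminal-like and 2527 CPM in basal-like cells, and its log2 ratio was 0.18 (0.17 to 0.19). Manf, a secreted protein released on calcium depletion of the organelle, was at 598 and 613 CPM, and its counts are uncertain because its annotated exons overlap Rbm15b on the same strand. Dnajb9 and Dnajb11, both HSP40 cochaperones of BiP, had ratios of 0.02 (-0.04 to 0.08) and -0.23 (-0.29 to -0.17) while other partners of BiP had higher ones, at 1.501 for Dnajc3 and 0.62 for Hyou1. The signs of Manf and Dnajb11 turned when libraries were scaled by the trimmed mean of M values (TMM), which moved every ratio of this comparison by 0.24.

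Of the 7 sensors and transcription factors that passed, 4 were higher and 3 lower in luminal-like cells. The 3 lower ones were Atf4, Ddit3 and Trib3. Atf4 was at 363 CPM in DoubleTg luminal-like and 572 CPM in basal-like cells (-0.66, -0.68 to -0.63). Ddit3 was at 35.9 and 58.1 CPM (-0.70, -0.78 to -0.61). Trib3, a pseudokinase induced by ATF4 and CHOP, was at 8.37 and 24.8 CPM (-1.57, -1.70 to -1.43). Xbp1, at 220 and 170 CPM (0.37, 0.32 to 0.41), and Ern1, at 19.2 and 10.9 CPM (0.82, 0.64 to 0.995), were higher in luminal-like cells. Atf6, at 47.2 and 38.5 CPM (0.30), and Creb3l2, at 33.2 and 15.4 CPM (1.11), were higher there too.

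In TripleTg the same comparison was flatter. Luminal-like over basal-like, 4 of 35 genes were at least 2-fold higher (P4hb, Sdf2l1, Creld2 and Edem2) and 0 at least 2-fold lower, with 9.08% of 8950 genes higher and 10.3% lower, and the median was 0.46 against 0.04. Sdf2l1 was at 33.9 and 13.1 CPM (1.37, 1.20 to 1.56), and Pdia4 at 43.5 and 35.5 CPM (0.30, 0.18 to 0.41), whereas in DoubleTg Pdia4 had stood at 164 and 44.7 CPM. Hspa5 was at 1752 and 1152 CPM (0.61, 0.59 to 0.62). Atf4 was again lower in luminal-like cells, at 291 against 331 CPM, and so was Ddit3, at 20.2 against 31.8 CPM. Among the 88 other pathway genes found, 7 of 79 were at least 2-fold higher and 3 lower in TripleTg, and 35 of 82 higher and 3 lower in DoubleTg. In DoubleTg the extremes were Agr2, a disulfide isomerase of mucus-secreting cells (4.63), Derl3 (3.93) and Nupr1 (3.87), and Vldlr (-3.13), Sesn2 (-1.91) and Ero1l (-0.70). In TripleTg they were Dnajc10 (2.29), Fkbp11 (2.22) and Sec11c (1.16) on the higher side, with Vcp (-0.44) and Asns (-0.42) among the lowest.

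Between genotypes, 15 of 36 genes were at least 2-fold lower in TripleTg than in DoubleTg luminal-like cells and 0 were at least 2-fold higher. Over all 9047 genes, 12.0% were lower and 11.9% higher. The median log2 ratio of the members was -0.88, against 0.03 over all genes, and 35 of 36 ratios were below 0. With 1 library per genotype this is a comparison of libraries and not a test of the Ctnnb1 allele. Among cells with hMETtg UMIs the median was -0.9998.

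The folding genes had a median of -1.16, and 8 of 15 were at least 2-fold lower. Hspa5 was at 2858 CPM in DoubleTg and 1752 CPM in TripleTg luminal-like cells (-0.71, -0.71 to -0.70). Hsp90b1, the HSP90 of the lumen, was at 997 and 430 CPM (-1.21, -1.23 to -1.20), and the lectin chaperone Calr at 1126 and 503 CPM (-1.16, -1.18 to -1.15). Its membrane-bound relative Canx was at 296 and 186 CPM (-0.67, -0.69 to -0.65). All 4 of these chaperones were lower in the TripleTg cells, and among the 4 the differences were smallest for Canx and Hspa5.

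Among the disulfide isomerases, Pdia6 was at 724 and 179 CPM (-2.02, -2.036 to -1.996), Pdia4 at 164 and 43.5 CPM (-1.92, -1.96 to -1.87), P4hb at 968 and 303 CPM (-1.67, -1.69 to -1.66) and Pdia3, which works with the lectin chaperones, at 711 and 402 CPM (-0.82, -0.84 to -0.81). Sdf2l1 had the lowest ratio of all 36, 210 against 33.9 CPM (-2.63, -2.68 to -2.59). Creld2, at 127 and 38.7 CPM (-1.71), and Dnajc3, which encodes the cochaperone and PERK inhibitor p58IPK, at 403 and 126 CPM (-1.68), were also more than 2-fold lower. Dnajb9, Dnajb11, Hyou1 (the HSP110-like exchange factor of BiP) and Manf had ratios between -0.92 and -0.53. The 10 genes with an ER stress response element in either form had a median of -1.19 and the other 21 with a promoter entry -0.83, which is a description of these genes and not a test.

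The sensors and transcription factors differed less, with a median of -0.74 over 7 genes. Atf6 was the exception in sign, at 47.2 CPM in DoubleTg and 53.1 CPM in TripleTg luminal-like cells (0.17, 0.12 to 0.22), and this sign turned when the totals left out the secretory products. Atf4 was at 363 and 291 CPM (-0.32, -0.34 to -0.30) and Xbp1 at 220 and 119 CPM (-0.89, -0.92 to -0.86). Ddit3 was at 35.9 and 20.2 CPM (-0.83, -0.89 to -0.76), Trib3 at 8.37 and 3.499 CPM (-1.26, -1.41 to -1.11) and Ern1 at 19.2 and 13.3 CPM (-0.53, -0.62 to -0.45). Creb3l2, an ATF6-like factor of the secretory pathway, was at 33.2 and 19.9 CPM (-0.74).

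The 2 genes under 5 CPM in luminal-like cells were Ern2 and Creb3l1. Ern2, the IRE1 kinase of mucosal epithelia, had 18 UMIs over all DoubleTg and 10 over all TripleTg luminal-like cells, and 19 and 12 UMIs over all kept cells, so no difference was detectable at this depth. Creb3l1, a relative of Creb3l2 known from matrix-secreting cells, had 190 and 29 UMIs there, 0.992 and 0.229 CPM. It was at 34.8 CPM in TripleTg fibroblast-like cells and at 48.3 CPM in TripleTg smooth muscle-like cells.

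All 5 degradation genes were lower in TripleTg luminal-like cells, with a median of -1.34. Edem2 was at 83.0 and 22.9 CPM (-1.86, -1.92 to -1.80), Edem1 at 109 and 36.2 CPM (-1.59, -1.63 to -1.54), Herpud1, a scaffold of the degradation complex, at 284 and 112 CPM (-1.34, -1.37 to -1.32), and Sel1l, the adaptor of the ubiquitin ligase, at 42.2 and 17.7 CPM (-1.26, -1.33 to -1.19). Syvn1, the ligase itself, was at 45.7 and 24.9 CPM (-0.88, -0.94 to -0.82) and was the only one of the 5 short of 2-fold. The entry genes had a median of -0.54. Of the Sec61 channel, Sec61g was at 1138 and 432 CPM (-1.40, -1.41 to -1.38), Sec61b at 1066 and 471 CPM (-1.18, -1.19 to -1.16) and Sec61a1, the pore, at 179 and 96.5 CPM (-0.90, -0.93 to -0.87). The translocon-associated Ssr1, Ssr2, Ssr3 and Ssr4 lay between -0.83 and -0.25, and Spcs1 and Spcs2 of the signal peptidase were at -0.31 and -0.50.

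Of the other pathway genes, 28 of 81 were at least 2-fold lower and 3 higher in TripleTg luminal-like cells, with a median of -0.75. The lowest were Agr2, at 654 CPM in DoubleTg and 16.2 CPM in TripleTg (-5.33), Derl3 of the degradation channel at 51.9 and 1.44 CPM (-5.17) and Chac1, an ATF4 target that degrades glutathione, at 22.2 and 3.18 CPM (-2.80). The 3 highest were Wfs1 (1.19), Ero1l (1.18) and Crebrf (1.16).

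**Figure D2:**
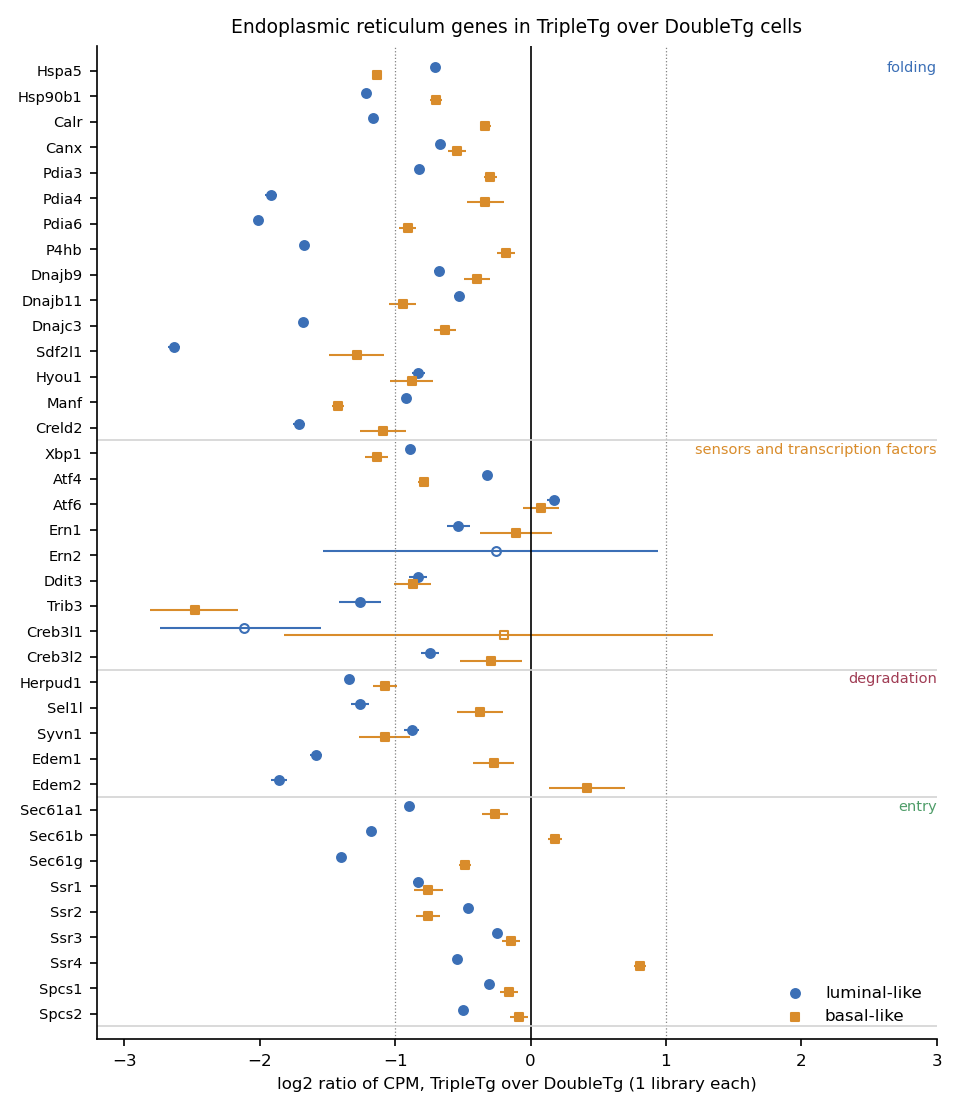
Points give the log2 ratio of CPM, TripleTg over DoubleTg, for the 38 genes in luminal-like (circles) and basal-like (squares) cells, 1 library per genotype. Lines are 95% counting intervals, dotted lines mark 2-fold, open symbols are genes under 5 CPM in both libraries, and Ern2 in basal-like cells is left out because it had at most 1 UMI in either. In luminal-like cells 35 of 36 filled points lie below 0.

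In basal-like cells 8 of 36 genes were at least 2-fold lower in TripleTg and 0 at least 2-fold higher, against 12.7% and 14.3% of 8964 genes, and the median was -0.51 against -0.06. The 8 were Hspa5, Sdf2l1, Manf, Creld2, Xbp1, Trib3, Herpud1 and Syvn1, of which Sdf2l1, Creld2, Trib3 and Herpud1 were also 2-fold lower in luminal-like cells. Hspa5 was at 2527 and 1152 CPM (-1.13, -1.16 to -1.11), Manf at 613 and 229 CPM (-1.42, -1.47 to -1.37) and Trib3 at 24.8 and 4.45 CPM (-2.48, -2.81 to -2.16). These 3 had lower ratios in basal-like than in luminal-like cells, and P4hb (-0.18), Pdia4 (-0.33) and Edem1 (-0.27) had higher ones. Ssr4 had the opposite sign in the 2 classes, at 271 and 474 CPM in basal-like cells (0.81, 0.76 to 0.85) and at 941 and 647 CPM in luminal-like cells (-0.54, -0.55 to -0.53), a contrast that was not tested. Of the other pathway genes 8 of 79 were at least 2-fold lower and 6 higher. Agr2 (-2.94), Mogs (-1.69) and Chac1 (-1.46) were lowest, and Nupr1, a stress-induced chromatin protein (2.07), Erlec1 (1.15) and Srp14 (1.02) highest. Basal-like cells had median UMI counts of 12645 in DoubleTg and 19994 in TripleTg.

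The seminal vesicle-like cells had far larger loads of secretory products, at 40.1% of UMIs in DoubleTg and 47.0% in TripleTg, and all CPM of other genes are lowered by such loads. In DoubleTg, 11 of 36 genes were at least 2-fold lower than in luminal-like cells and 1 higher, against 23.3% and 5.88% of 8770 genes, and the median of -0.55 lay near the median of all genes, -0.51. In TripleTg, 2 of 36 were lower and 2 higher, against 51.1% and 3.69% of 8500 genes, and the median was -0.20 against -1.02. Relative to all genes the members therefore stood at -0.04 in DoubleTg and 0.82 in TripleTg seminal vesicle-like cells. When the totals left out the secretory products, the signs of 10 of 36 ratios turned in DoubleTg and of 21 of 36 in TripleTg.

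The direction of single genes is given here for both totals. Trib3 was at 78.8 CPM in DoubleTg seminal vesicle-like and 8.37 CPM in luminal-like cells (3.24, 3.08 to 3.39), and at 20.9 and 3.499 CPM in TripleTg (2.58, 2.396 to 2.759), and it stayed higher under either total. Herpud1 was at 391 and 284 CPM in DoubleTg (0.46) and at 184 and 112 CPM in TripleTg (0.72), also higher under either. Sdf2l1 was at 89.9 and 210 CPM in DoubleTg (-1.22) but at 86.3 and 33.9 CPM in TripleTg (1.35), with these signs under either total. Hspa5 was at 1003 and 2858 CPM in DoubleTg (-1.51, -1.55 to -1.47), lower under either total, and at 1120 and 1752 CPM in TripleTg (-0.65), a sign that turned without the secretory products. Ssr4 was higher in this class than in any other named class of its library, at 1006 CPM in DoubleTg and 1041 CPM in TripleTg. Of the other pathway genes, 7 of 83 were at least 2-fold higher and 12 lower in DoubleTg and 7 of 81 higher and 12 lower in TripleTg. Chac1 (3.76 and 4.32) and Ero1lb, an oxidase of disulfide formation (2.64 and 4.38), were among the 3 highest in both, with Vldlr (2.91) in DoubleTg and Asns (1.92) in TripleTg. Nupr1 (-3.46 and -3.15) and Dnajc10 (-2.59 and -1.62) were among the 3 lowest in both, with Agr2 (-3.72) in DoubleTg and Crebrf (-1.68) in TripleTg.

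Cells of the seminal vesicle class formed 1 cluster in DoubleTg and 2 in TripleTg, and the latter differed. In the cluster led by Crisp1 (445 cells) the 38 genes took 0.853% of UMIs, and in the cluster led by Sva (141 cells) 0.430%. Secretory products took 38.8% and 68.9% of their UMIs. As a share of the remaining UMIs the 38 genes took 1.39% and 1.38%, against 1.52% in the DoubleTg cluster and 1.72% and 0.771% in DoubleTg and TripleTg luminal-like cells. Among the remaining UMIs, the TripleTg seminal vesicle-like cells thus held a larger share of these genes than the TripleTg luminal-like cells did, while in DoubleTg the order was the reverse.

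**Figure D3:**
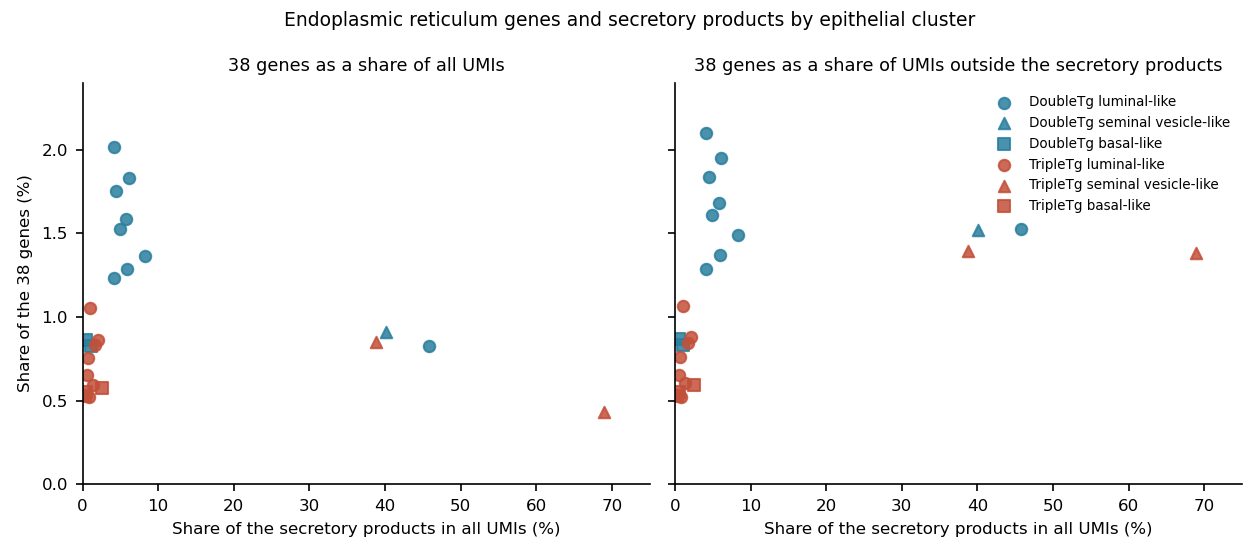
Each point is an epithelial cluster, placed by the share of the 26 secretory products in its UMIs (%, horizontal axis) and by the share of the 38 endoplasmic reticulum genes (%, vertical axis) in all UMIs (left) or in the UMIs outside the secretory products (right). The DoubleTg cluster with 45.8% secretory products moves from 0.826% to 1.52%, and the TripleTg cluster with 68.9% from 0.430% to 1.38%.

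Within the luminal-like class of DoubleTg, the 8 clusters of at least 100 cells differed widely. The share of the 38 genes ran from 2.02% in cluster 10, led by Gm37223 and 9530053A07Rik, through 1.83% in cluster 13 (Pcp4, Msmb), 1.75% in cluster 14 (Srpx), 1.59% in cluster 17 (Msln), 1.53% in cluster 12 (Alb), 1.37% in cluster 11 (Spink5) and 1.29% in cluster 1 (Ifit3b) to 0.826% in cluster 4 (Scgb2b27, Sbp). Outside the secretory products cluster 4 stood at 1.52%, above cluster 11 at 1.49% and cluster 1 at 1.37%, and cluster 10 was still highest at 2.10%. Cluster 10 was highest for 24 of the 36 genes at 5 CPM or more, cluster 13 for 7, cluster 14 for 4 and cluster 12 for 1. Cluster 4 was lowest for 32 with all UMIs and for 12 with totals outside the secretory products. The shares of all genes highest or lowest in these clusters were not counted, so such counts cannot be read as particular to the members. Between the highest and the lowest cluster 31 of 36 genes differed at least 2-fold, with a median of 2.82-fold, against 73.9% of 9465 genes and a median of 2.50-fold over all genes. Secretory products took 45.8% of UMIs in cluster 4. Without that cluster the count was 15 and the median 1.69-fold, against 36.5% and 1.71-fold over all genes. With totals outside the secretory products it was 15 and 1.86-fold, against 43.5% and 1.86-fold, and without cluster 10 it was 25, against 67.0%. Apart from the count over all clusters, the members' shares were near those of all genes.

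Cluster 10 held the highest level of Atf6, Atf4, Trib3, Pdia4 and Pdia6, while Pdia3 was highest in cluster 14 (947 CPM) and P4hb in cluster 13 (1136 CPM). Atf6 was at 117 CPM there and between 28.9 and 61.1 CPM in the other 7 clusters, and Atf4 at 645 CPM against 236 to 403 CPM. Trib3 was at 25.2 CPM against 2.49 to 13.1 CPM, and Pdia4 at 328 CPM against 45.8 to 245 CPM. Cluster 10 was also highest for Atf6, Atf4, Trib3 and Pdia4 with totals outside the secretory products. Xbp1 was at 250 CPM in cluster 10, 253 CPM in cluster 12 and 171 CPM in cluster 4, and outside the secretory products this order turned, with 315 CPM in cluster 4, 267 CPM in cluster 12 and 261 CPM in cluster 10. Hspa5 was highest in cluster 14, at 3825 CPM, then at 3604 CPM in cluster 17 and 3529 CPM in cluster 10, and lowest in cluster 4, at 1309 CPM, although outside the secretory products cluster 11 was lowest, at 2199 CPM against 2414 CPM in cluster 4. Herpud1 was at 413 CPM in cluster 10 and 400 CPM in cluster 4 (430 and 738 CPM outside the secretory products), and at 149 CPM in cluster 17 and 163 CPM in cluster 14, where Hspa5 was highest.

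In TripleTg the 7 luminal-like clusters ran from 1.06% in cluster 8 (Defb50, Coch) through 0.864% in cluster 13 (Ifit3), 0.832% in cluster 5 (Rnase1), 0.755% in the cycling cluster 0 (Ube2c), 0.650% in cluster 9 (Apoc4) and 0.595% in cluster 3 (Fam213a) to 0.520% in cluster 1 (Defa5). Cluster 8 was highest for 24 of 36 genes and cluster 1 lowest for 27. The shares of all genes with their extremes there were not counted, so these counts cannot be read as particular to the members. Between clusters 15 genes differed at least 2-fold, with a median of 1.91-fold, against 38.1% of 9370 genes and a median of 1.77-fold. Without cluster 1 the count was 10 (33.4% of all genes), without cluster 8 it was 11 (34.4%), and with totals outside the secretory products 15 (38.3%), all near the share of all genes. Secretory products took at most 2.08% of UMIs in these clusters. Hspa5 was at 3078 CPM in cluster 8, between 1091 and 1832 CPM in 5 others and at 905 CPM in cluster 1. Ern1 was at 25.4 CPM in cluster 8 and 6.41 CPM in cluster 1, Herpud1 at 181 and 58.5 CPM, and Manf at 508 and 174 CPM, while Atf4 (314 and 253 CPM), Calr (578 and 423 CPM) and Ssr4 (711 and 584 CPM) differed little.

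**Figure D4:**
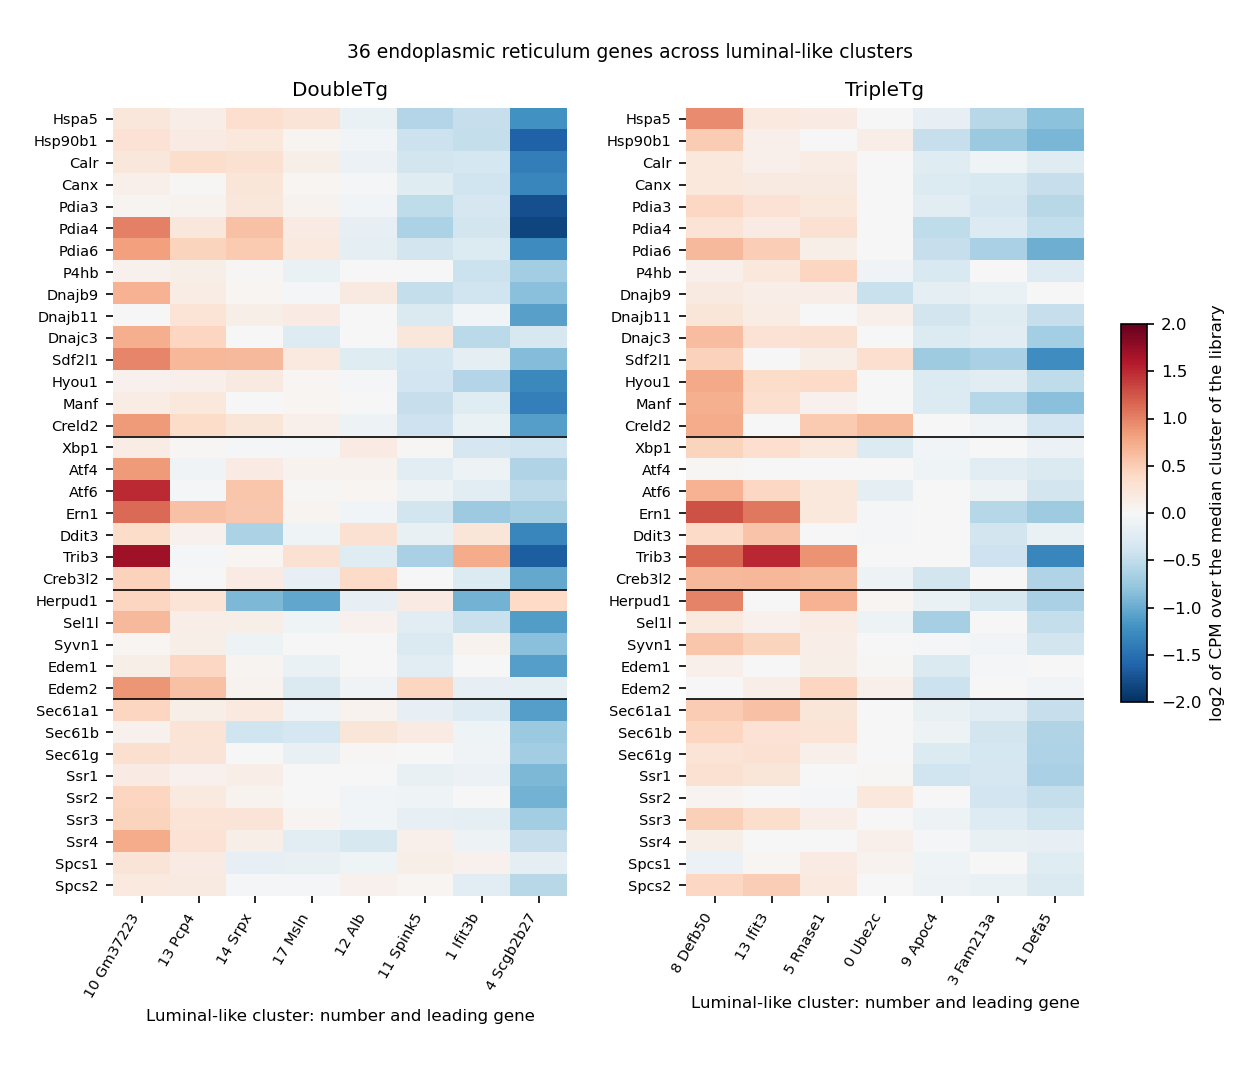
Colors give the log2 of CPM over the median luminal-like cluster of the library for the 36 genes at 5 CPM or more (rows, grouped by role) in the luminal-like clusters of at least 100 cells (columns, ordered by the share of all 38 genes). Cluster 4 of DoubleTg is lowest for 32 genes (12 with totals outside the secretory products, which are not drawn), and cluster 8 of TripleTg is highest for 24. The shares of all genes lowest or highest in these clusters were not counted.

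Some luminal-like clusters of the libraries shared leading genes. Cluster 10 of DoubleTg and cluster 8 of TripleTg, each with the highest share of the 38 genes among the luminal-like clusters of its library, had 4 of their 10 leading genes in common (9530053A07Rik, C1rb, C1s2 and Tgm4), and their shares were 2.02% and 1.06%. The leading genes of cluster 8 also held Defb50, shared with DoubleTg cluster 13 (1.83%), and Srpx, shared with DoubleTg cluster 14 (1.75%). The pairing with cluster 10 therefore rests on part of its leading genes. In this pair Hspa5 was at 3529 and 3078 CPM, Pdia6 at 1214 and 284 CPM, Sdf2l1 at 363 and 49.96 CPM and Atf4 at 645 and 314 CPM. The interferon-response clusters, which shared 8 of 10 leading genes, had 1.29% in DoubleTg and 0.864% in TripleTg, and the cycling clusters, which shared 5, had 1.23% (90 cells) and 0.755%. In each of these pairs the TripleTg cluster had the lower share.

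**Figure D5:**
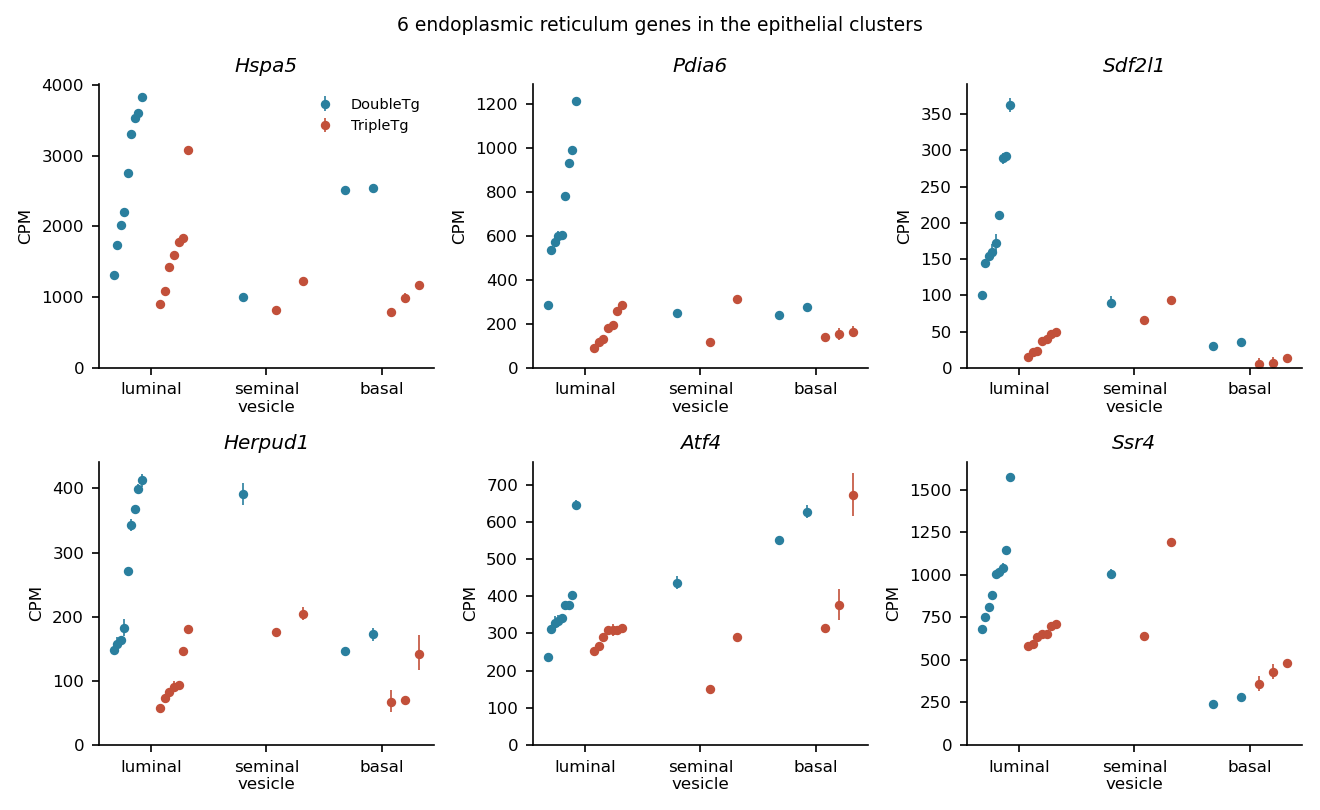
Each point is the CPM of a gene in 1 epithelial cluster of DoubleTg (blue) or TripleTg (red), with lines for 95% counting intervals, for Hspa5, Pdia6, Sdf2l1, Herpud1, Atf4 and Ssr4, and every vertical axis starts at 0. Luminal Sdf2l1 lies between 101 and 363 CPM in DoubleTg and between 15.4 and 49.96 CPM in TripleTg, without overlap, whereas the Hspa5 ranges overlap.

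Some genes had their highest level in other cell classes. Endothelial-like cells were highest for Creb3l2 in both libraries, with an interval that overlapped glial-like cells in TripleTg, at 222 CPM in DoubleTg and 215 CPM in TripleTg against 33.2 and 19.9 CPM in luminal-like cells, and for Trib3, at 130 CPM in DoubleTg and 32.5 CPM in TripleTg. Outside the secretory products Trib3 was at 132 CPM in endothelial-like and 132 CPM in seminal vesicle-like cells of DoubleTg, and at 32.8 and 39.4 CPM in TripleTg, with overlapping intervals in both. Dendritic-like cells were highest for Herpud1 (789 and 523 CPM) and Sel1l (82.1 and 56.5 CPM) in both libraries, with an overlap with macrophage-like cells for Sel1l in TripleTg. T or NK-like cells, named in DoubleTg only, held Ern1 at 58.3 CPM, against 6.58 to 20.7 CPM in the other classes of that library. Dnajb9 was at 117 CPM in TripleTg fibroblast-like cells, which overlapped endothelial-like cells at 102 CPM. Smooth muscle-like cells of TripleTg were highest for Hsp90b1 (701 CPM), Calr (640 CPM), Pdia4 (68.8 CPM, overlapping fibroblast-like cells at 67.0 CPM) and P4hb (339 CPM), where luminal-like cells had been highest in DoubleTg, but outside the secretory products Calr (809 CPM), Pdia4 (93.1 CPM) and P4hb (504 CPM) were highest in seminal vesicle-like cells of TripleTg.

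The immediate early and heat shock list took 1.44% and 1.60% of UMIs in DoubleTg and TripleTg glial-like cells, 1.14% and 1.07% in fibroblast-like, 1.07% and 0.700% in smooth muscle-like and 0.856% and 0.689% in endothelial-like cells, all above its luminal and basal shares, and its part in the levels there was not tested. Ddit3 was at 153 and 85.8 CPM in macrophage-like cells. Its level was lowest in the epithelium of both libraries, at 35.9 to 58.1 CPM in DoubleTg and 13.4 to 31.8 CPM in TripleTg, apart from the TripleTg neutrophil-like cells at 28.2 CPM.

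In DoubleTg luminal-like cells, 4051 cells with hMETtg UMIs were set beside 593 without. Gene counts were reduced to 5000 UMIs per cell. The split itself used hMETtg UMIs before that reduction, so depth was not made equal for it. None of the 36 genes was 2-fold apart (0 higher and 0 lower, against 2.86% and 1.53% of 8753 genes), and the median of 0.17 lay near that of all genes, 0.12. The highest ratios were those of Creb3l2 at 0.56 (0.22 to 0.93), Calr at 0.53 (0.47 to 0.59) and Pdia3 at 0.47 (0.39 to 0.54). Trib3 was lowest at -0.53 (-1.03 to 0.01), Herpud1 was at -0.47 (-0.56 to -0.37) and Atf4 at -0.23 (-0.32 to -0.15). Of the other pathway genes 1 of 82 was at least 2-fold higher and 2 lower, the lowest being Chac1 (-1.55), Asns (-1.01) and Atf3 (-0.96) and the highest at 20 CPM or more Srprb (0.57), Txndc5 (0.50) and Sec23b (0.48). Cells without an hMETtg UMI can still carry the transgene, and the 2 groups came from different clusters, with 95.4% of cells positive in cluster 17 and 64.9% in cluster 4.

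Across single luminal-like cells reduced to 5000 UMIs, pairs of folding genes had a higher median coefficient than pairs of other groups. Genes with a mean of at least 0.5 UMIs per reduced cell were paired. Over 78 pairs of folding genes the median Spearman coefficient was 0.27 in DoubleTg (4644 cells), and over 36 pairs it was 0.18 in TripleTg (4083 cells), while over all pairs it was 0.12 and 0.10. The highest was Hsp90b1 with Calr at 0.53 in DoubleTg, and 0.45 within clusters, and Hspa5 with Hsp90b1 at 0.45 in TripleTg, and 0.33 within clusters. Hspa5 with Manf stood next in both, at 0.52 and 0.44. Atf4 and Sec61b had the lowest coefficient in DoubleTg, -0.04. The cells of a library share its preparation and their total is fixed, and these coefficients are descriptions without a test.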

How the data were processed

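The deposited matrices hold raw UMI counts per gene and cell (10x 3′ v3, tumors dissociated with collagenase and TrypLE), made by the authors with Cell Ranger on mm10 plus the transgene sequences. The submitters' processing notes name version 6.0.2 and the DoubleTg matrix header 6.1.1. A cell was kept if it had more than 200 but fewer than 7000 detected genes and if mitochondrial transcripts made up less than 15% of its UMIs, which the deposited TripleTg matrix already met. In DoubleTg, 10598 cells remained, more than the study states, and 9492 in TripleTg. Totals of kept cells were 256880958 and 229655259 UMIs.

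Each library was clustered with scanpy 1.11.5 and leidenalg 0.10.2 (2000 variable genes without the 38 genes and other pathway genes, 20 components, 15 neighbors, resolution 1). Clusters were named from fixed markers, with the epithelial share of 0.85 and the cornified rule (2 cornified genes among the top 10) set after clusters were seen. These left 230 DoubleTg cells (2.17%) and 953 TripleTg cells (10.0%) epithelial without a subclass. UMIs were summed per class, scaled to CPM and given exact Poisson intervals, with conditional binomial intervals for ratios (scipy 1.17.1). TMM factors came from edgeR 4.0.16 in R 4.3.3. Ratios were read at 5 CPM or more in either group, after a test on simulated data. All 38 members were reported, and of the other pathway genes the 3 highest and 3 lowest ratios at 20 CPM or more, of which 1 is not reported here. Members and lists were chosen with earlier results of these data known. Scrublet marked 273 DoubleTg cells (2.58%) and 0 TripleTg cells, so its calls were not used in TripleTg and no marked cells were removed. Per the study's methods, the upper limit on genes was meant to take out doublets, and the deposited TripleTg matrix already met it.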

Additional observations from a re-analysis of the deposited data

Results flagged for a closer look

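Some members had ratios of opposite sign under the same contrast in 2 settings, with each counting interval clear of 0. With 1 library per genotype, none of these differences was tested, and both classes were made up of different clusters in each library. TripleTg over DoubleTg, Edem2 had a log2 ratio of -1.86 in luminal-like and 0.41 in basal-like cells, Sec61b of -1.18 and 0.18, and Ssr4 of -0.54 and 0.81. Luminal-like over basal-like, Dnajb11 had -0.23 in DoubleTg and 0.19 in TripleTg, Manf -0.036 and 0.46, and Sel1l 0.51 and -0.38. The DoubleTg signs of Dnajb11 and Manf turned under TMM factors, and that of Manf also with totals outside the secretory products.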

How the results depend on the processing

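The median log2 ratio of TripleTg over DoubleTg luminal-like cells (-0.88) was -0.99 with TMM factors, -1.06 with totals without secretory products, -0.96 thinned to 5000 UMIs, -0.93 with equal weight per cell, -0.9998 in hMETtg-positive cells and -0.99 without the Sbp cluster. Luminal-like over basal-like, the DoubleTg median (0.85) was 1.09 with TMM factors and 1.03 without secretory products. The TripleTg median (0.46, 4 members at least 2-fold higher) was 0.53 thinned, 0.51 with equal weight, 0.41 with clusters made with the members (2 higher) and 0.39 with the cornified cluster (2 higher). Seminal vesicle-like over luminal-like, the DoubleTg median (-0.55, 1 higher and 11 lower) was -0.15 with TMM factors (6 lower) and 0.0015 without secretory products (2 higher, 3 lower). The TripleTg median (-0.20, 2 higher and 2 lower) was 0.68 with TMM factors (11 higher, 0 lower), 0.70 without secretory products (12 higher, 0 lower), -0.042 thinned, -0.12 with equal weight (0 lower), 0.063 with the Crisp1 cluster only (0 lower) and -0.96 with the Sva cluster only (0 higher, 15 lower), and 1 member was lower both with clusters made with the members and with the cornified cluster. The count of members 2-fold lower in hMETtg-positive cells was 1 at 1 CPM or more. The leaving out or adding of clusters, and the counts over all genes beside the cluster and class counts, were chosen after seeing the data. Apart from the scalings, whose own construction shifts every ratio, the cause was not tested.

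Relative to all genes the scalings leave the members in place: they moved the median of all genes by -0.10 and -0.17 (TripleTg over DoubleTg, luminal-like, TMM and without secretory products), by 0.24 and 0.18 (DoubleTg, luminal-like over basal-like), by 0.40 and 0.55 (seminal vesicle-like, DoubleTg), by 0.88 and 0.90 (seminal vesicle-like, TripleTg) and by -0.07 and -0.11 (hMETtg). Over 169 values of comparisons 133 stayed the same, 32 moved and 4 reversed, and the 13 members followed singly between genotypes kept their sign. No paired analysis was possible because each genotype has 1 library. Scrublet marked 0 TripleTg cells, and the alternative without marked cells was not run for comparisons with TripleTg cells. Depth limits Ern2 and luminal Creb3l1, and 1 library per genotype limits every comparison between genotypes.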

Other observations

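Cells in clusters that took no class name also held the 38 genes. In DoubleTg they took 1.32% of UMIs in shallow unnamed clusters (914 cells) and 1.03% in mixed ones (823 cells), and in TripleTg 0.629% (1089 cells) and 0.769% (140 cells). Epithelial cells without a subclass held 0.859% in DoubleTg and 0.544% in TripleTg.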
